A study of Mus musculus with 2 samples.

Results

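The 225 cells described here were the 1 in 4 PD800 cells with the highest share of RNA from mitochondrial genes, taken from 900 PD800 cells and from 1714 cells in both libraries of the study. A cell was a barcode with at least 1000 unique molecular identifiers (UMIs, tags that count single captured RNA molecules) and at most 20% of them from genes of the mitochondrial genome. These high-share cells were compared with the 225 PD800 cells of the lowest percentages, called low-share cells here. For genes outside the mitochondrial genome, each high-share cell was paired with a low-share cell of nearly the same total, which left 190 cells on each side. The share itself was what chose the cells, so its height in them is given below as a description.

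Both libraries came from DKO741, one Terc-/- line derived by targeting both alleles of the telomerase RNA gene in E14 mouse embryonic stem cells (mESCs), so the cells of both time points lacked Terc. The cells were harvested at PD100, before the alternative lengthening of telomeres (ALT), and at PD800, after ALT had set in. The study uses PD for population doubling, while the sample labels give 100 and 800 passage. Stocks of the line were kept on feeder fibroblasts, and experiments used feeder-free cultures. Each time point was 1 inDrops library without replicates and without a telomerase-positive library, so that passage, culture and library cannot be told apart. Cells of 1 library are not replicates. No test was made, all differences are descriptive, and the 95% intervals cover counting error only. No UMI of Terc was counted in the paired cells of either side. Without a telomerase-positive library this count is no evidence of its loss.

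Mitochondrial DNA is a small circular genome that is transcribed from both strands into long precursor RNAs, which are cut into ribosomal RNAs, transfer RNAs and mRNAs. All of its mRNAs code for subunits of the respiratory chain and ATP synthase, whose remaining subunits are made from nuclear genes and imported. In single-cell work the mitochondrial share of RNA is commonly used as a filter on damaged cells. It also differs between cell types with different energy metabolism.

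inDrops primes cDNA from poly(A) tails, and most mitochondrial mRNAs carry a tail directly after the stop codon or within it. The ends of the 3 marker transcripts are shown because they are the stretch next to the tail from which these molecules were counted. They are the last 30 bases in GENCODE M21 (GRCm38, plus strand), with the bases of the stop codon in capitals.
mt-Nd1, chrM:2751-3707: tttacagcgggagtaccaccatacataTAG
mt-Atp6, chrM:7927-8607: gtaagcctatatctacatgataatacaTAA
mt-Cytb, chrM:14145-15288: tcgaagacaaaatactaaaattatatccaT
mt-Cytb is 1 of 3 among the 13 mitochondrial mRNAs whose annotated length is not a multiple of 3, and for these the tail supplies the missing bases of the stop codon.

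The high-share cells held between 5.38% and 18.4% mitochondrial UMIs, with a median of 6.20%. The low-share cells held between 0% and 3.67%, with a median of 3.29%, and the 2 groups of 225 cells in between had medians of 4.07% and 4.88%. There was no gap at the boundary: the last high-share cell stood at 5.38% and the first cell below it at 5.35%. Most high-share cells were close to that boundary, and 16 of the 900 cells exceeded 10%. The share was graded, with the high-share cells at the upper end of 1 broad distribution.

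**Figure D1:**
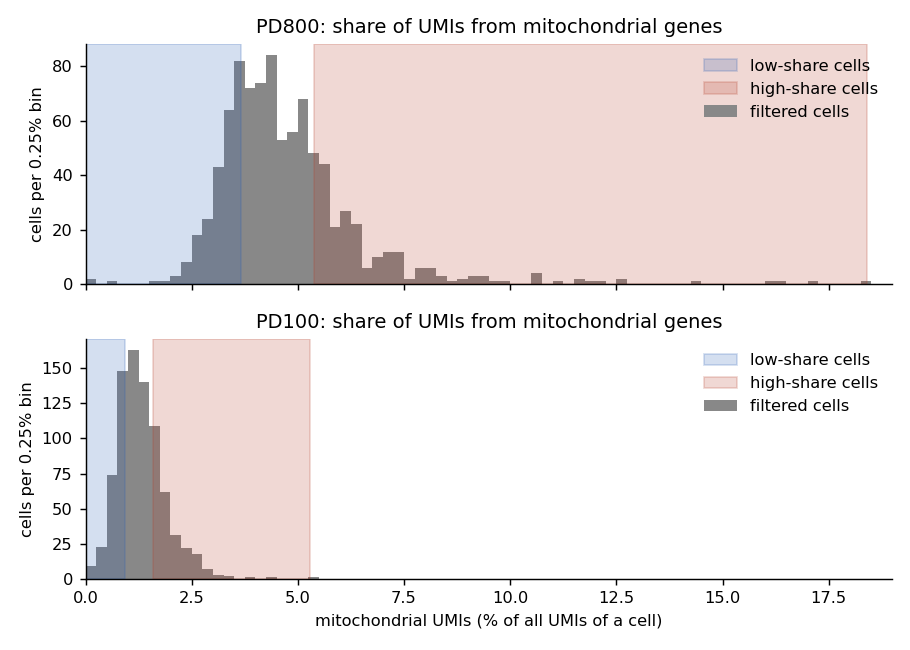
Number of cells per 0.25% bin of mitochondrial UMI share (horizontal axis, % of all UMIs of a cell) in the PD800 and PD100 libraries, with the 1 in 4 cells of highest and of lowest share in each library shaded. The high-share cells begin at 5.38%, beyond the highest PD100 cell at 5.27%.

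The spread was wider than counting alone gives. The standard deviation of the share over the 900 PD800 cells was 1.75 percentage points, against 0.434 for binomial sampling of a single common share at these depths, a ratio of 4.03. When the UMIs of each cell were divided at random into 2 sets of about equal size and high-share cells were chosen on 1 set, their median was 6.21% in that set and 6.08% in the other. Low-share cells so chosen had 3.23% and 3.47%. Of the 225 cells chosen on 1 set as high, 188 were also high-share cells by all their UMIs. All UMIs include that set, so this overlap is partly built in.

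All 225 high-share cells lay above the highest of the 814 PD100 cells, which had 5.27%. Of the PD800 low-share cells, 3 lay at or below the PD100 median. The pooled share was 6.63% in the high-share cells, 3.21% in the low-share cells, 4.63% in all PD800 cells and 1.25% in all PD100 cells. The 203 PD100 cells of highest share, chosen by the same rule, began at 1.60% and had a median of 1.90%. In PD100 the share also varied more than binomial sampling gives, with a standard deviation of 0.577 against 0.251.

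The 3 marker genes were counted in every high-share cell. mt-Nd1, a subunit of complex I, had a median of 22 UMIs per high-share cell, with a range from 4 to 79. In the low-share cells its median was 13 UMIs, with a range from 0 to 53. mt-Atp6, a proton channel subunit of ATP synthase, had a median of 36 UMIs in the high-share cells and 21 in the low-share cells. Its range was from 8 to 134 in the high-share cells and from 0 to 72 in the low-share cells. mt-Cytb, the cytochrome b of complex III, had a median of 34 UMIs against 19, with ranges from 6 to 107 and from 0 to 74. The ranges of all 3 overlapped, and the depth of the cells differed within both groups.

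High-share cells were shallower than the low-share cells before pairing, with a median total of 2324 against 2828 UMIs. After pairing the medians were 2554 and 2545. Thinned to 800 non-mitochondrial UMIs, the paired high-share cells showed a median of 545 detected genes, with quartiles of 531.25 and 558. The paired low-share cells showed 550, with quartiles of 538.25 and 561.75. Over all 900 cells the rank correlation of mitochondrial share with total UMIs was -0.10, and over the PD100 cells it was -0.26, where both measures share the same total. Scrublet called 8 of the 900 cells doublets, of which 1 was a high-share cell and 1 was a low-share cell. Of the filtered cells, 8 carried a barcode also found among the filtered cells of the other library, and 1 of them was a high-share cell.

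The composition of the mitochondrial RNA was nearly the same on both sides. The cells were chosen by the sum of these same genes, in which the most counted genes weigh most. Small differences in composition are therefore not independent of the choice. The paired high-share cells held 34103 mitochondrial UMIs and the paired low-share cells 16235. The 13 mRNAs made up 97.4% of these in the high-share cells and 97.1% in the low-share cells, and the 2 ribosomal RNAs made up 2.62% and 2.91%. The ratio of the ribosomal RNA shares was -0.15 on the log2 scale, with an interval from -0.31 to 0.01. Of the 22 transfer RNA genes, which lack a poly(A) tail, 6 UMIs were counted in the high-share cells and 3 in the low-share cells.

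By complex, the 7 subunits of complex I took 23.4% of mitochondrial UMIs in the high-share cells and 24.4% in the low-share cells. The 3 catalytic subunits of complex IV took 28.2% and 28.3%, and mt-Cytb took 21.1% in the high-share cells, at a log2 ratio of 0.00. The pair of ATP synthase subunits took 24.6% and 23.4%, a log2 ratio of 0.08 with an interval from 0.02 to 0.13, and most of it was mt-Atp6 at 23.9% against 22.7%. The most abundant mRNAs after mt-Atp6 and mt-Cytb were mt-Nd1, with 4980 UMIs in the high-share cells and 2463 in the low-share cells, and mt-Co1, the core of cytochrome c oxidase, with 4498 and 2157. mt-Co3 gave 3639 and 1792, mt-Nd4 gave 1933 and 978, and mt-Co2 gave 1484 and 648. mt-Nd6, the only mRNA from the light strand, was counted 8 times in the high-share cells and 2 times in the low-share cells, too few to compare. mt-Atp8 overlaps mt-Atp6 and mt-Nd4l overlaps mt-Nd4 on shared precursors, so the division of reads within each pair is uncertain. The transcripts from the heavy strand were each about as far above the low-share cells as the total, which was 1.09 higher on the log2 scale per non-mitochondrial UMI, with an interval from 1.07 to 1.12.

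**Figure D2:**
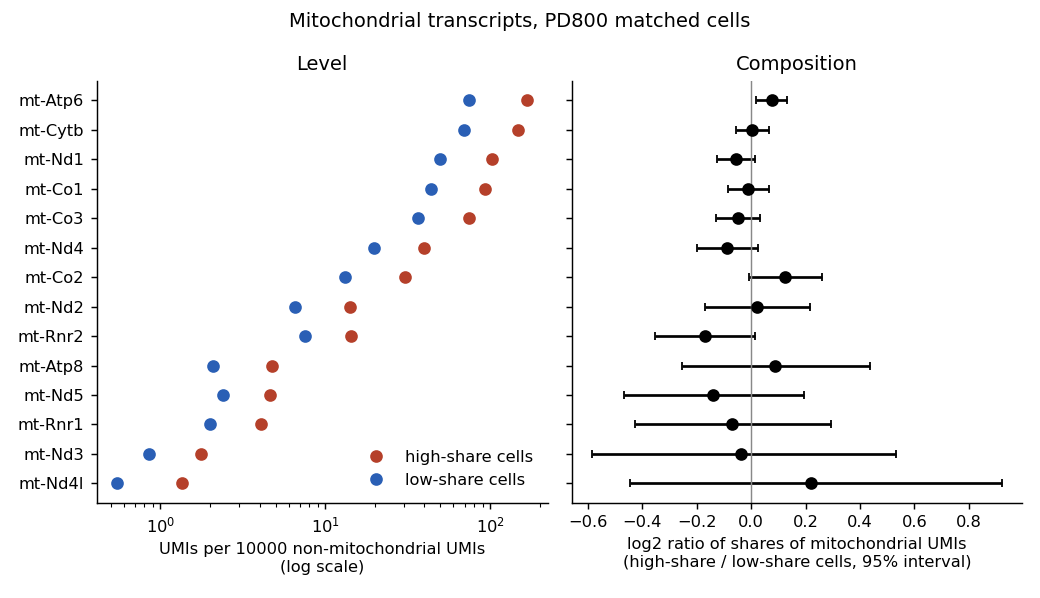
Mitochondrial transcripts in the paired PD800 cells: on the left the level per 10000 non-mitochondrial UMIs (log axis) in the high-share and low-share cells, on the right the log2 ratio of each gene's share of mitochondrial UMIs with its 95% counting interval. The right-hand values stay near 0, and the interval of mt-Atp6 (0.02 to 0.13) lies above it.

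The PD100 library differed in this composition. In its high-share cells mt-Co1 held 26.5% of mitochondrial UMIs and mt-Nd1 7.55%, while in the PD800 high-share cells these genes held 13.2% and 14.6%. Within PD100, mt-Cytb took 19.2% of mitochondrial UMIs in the high-share cells and 15.1% in the low-share cells, a log2 ratio of 0.34 with an interval from 0.16 to 0.53. mt-Co2 was also higher in share there, at 0.60, with an interval from 0.15 to 1.07, while mt-Co1 was lower at -0.21, from -0.35 to -0.08, and mt-Nd4 at -0.26, from -0.50 to -0.01. mt-Rnr1, with 3 and 7 UMIs, was too rare to compare. For mt-Cytb the PD800 ratio was 0.00, with an interval from -0.05 to 0.06.

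Outside the mitochondrial genome, the high-share cells and the paired cells were alike for most genes. Levels were counts per 1000000 (CPM) over non-mitochondrial UMIs, of which the high-share cells held 485831 and the paired low-share cells 493080. Of 1654 genes with at least 100 UMIs over both, the median log2 ratio was -0.03, with quartiles of -0.22 and 0.15. The ratio was above 0 for 750 genes and below 0 for 904. A level at least 1.5-fold higher was seen for 25 genes (1.51%) and at least 1.5-fold lower for 59 (3.57%). In PD100, by the same rule, the numbers were 39 (3.30%) and 42 (3.55%) of 1182 genes. With CPM over all UMIs, mitochondrial ones included, the PD800 median of all genes lay at -0.08 and the numbers were 16 and 84.

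The genes furthest above the low-share cells, ranked by the end of the interval nearer to equality, had mixed functions. They were picked by these values, which are given as a description. Tulp3 (chr6:128321161-128355851, minus strand), a carrier of receptors into the primary cilium, led with 227 UMIs in the high-share cells and 131 in the low-share cells, a log2 ratio of 0.81 with an interval from 0.50 to 1.14. It was counted in 102 high-share cells and 86 paired low-share cells, and 1 high-share cell alone gave 15 of its UMIs. Aurkb, the kinase of the chromosomal passenger complex, had 67 and 34 UMIs, a ratio of 1.00 that ran from 0.38 to 1.64. Cenpm, a kinetochore protein, had 260 and 179 UMIs.

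Dbi, which binds acyl-CoA esters, had 369 UMIs in the high-share cells and 244 in the low-share cells, or 760 against 495 CPM, a log2 ratio of 0.62 with an interval from 0.38 to 0.86. It was counted in 143 of 190 high-share cells and 116 of 190 paired cells. Hadhb, the thiolase subunit of the mitochondrial trifunctional protein that carries out beta-oxidation, had 483 and 329 UMIs, a ratio of 0.58. It was counted in about as many cells on both sides, 127 high-share cells and 125 paired cells. Its level was 994 and 667 CPM here, against 103 and 81 CPM in the paired PD100 cells. Ndufs7, a complex I subunit with an iron-sulfur cluster, had 155 and 101 UMIs, a ratio of 0.64. Cox8a, a small subunit of complex IV, had 709 and 539 UMIs, a ratio of 0.42.

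The rest of the 12 leading genes were Smap1 (0.87), Dppa4 (0.85), Crip2 (0.72), Hn1 (0.51) and Cd81 (0.50). Smap1 regulates Arf6 in endocytosis, Dppa4 is a chromatin protein of pluripotent cells and Cd81 is a tetraspanin of the cell surface. Smap1 had 92 UMIs in the high-share cells and 51 in the low-share cells, and Dppa4 had 89 and 50. Both rested on few UMIs, and their direction turned under 1 alternative each. For Smap1 the log2 ratio was -0.35 when the 1 in 10 cells at each end were compared, and for Dppa4 it was -0.02 when the share came from 1 random set of the UMIs and the levels from the other.

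At the other end, Snx3 had the largest shortfall, with 38 UMIs in the high-share cells and 86 in the low-share cells, a log2 ratio of -1.16 with an interval from -1.75 to -0.59. Snx3 sorts membrane proteins at endosomes. It was counted in 27 high-share cells and 51 paired cells. Tpm3, a tropomyosin of actin filaments, had 45 and 98 UMIs, a ratio of -1.10. Srsf10, a splicing factor, had 32 and 72 UMIs, a ratio of -1.15.

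Dek, an abundant chromatin protein, had 117 UMIs in the high-share cells and 220 in the low-share cells, or 241 against 446 CPM, a ratio of -0.89 with an interval from -1.23 to -0.56. Gmps, which makes guanine nucleotides, had 37 and 74 UMIs. Bzw1, a translation regulator that competes with Eif5, had 57 and 104 UMIs, a ratio of -0.85. Tcp1, a subunit of the cytosolic chaperonin, had 115 and 194 UMIs, a ratio of -0.73.

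Nfu1, which delivers iron-sulfur clusters in mitochondria, had 50 UMIs in the high-share cells and 106 in the low-share cells, a ratio of -1.06. Nubp1, an assembly factor for cytosolic iron-sulfur proteins, had 45 and 84 UMIs. Tmem126a, a mitochondrial inner membrane protein, had 44 and 85 UMIs. The uncharacterised 2810004N23Rik and 2410004B18Rik had ratios of -0.94 and -0.96. All 12 genes at this end kept their direction under each alternative of the cell filter, matching, scaling and cell weighting. They were picked as extremes on the same UMIs, and most alternatives reuse many of the same cells. Their unchanged direction is therefore no independent support.

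In the PD100 library, 8 of the 12 highest genes had at least 100 UMIs and 6 of them were higher in its high-share cells as well. Of the 12 lowest, 7 could be measured and 5 were lower. Over all 1089 genes measured in both libraries, 270 were above 0 in both and 342 below 0 in both, and most of the PD100 intervals of the 24 end genes held 0. Dbi was alike in both libraries, with a PD100 log2 ratio of 0.57 and an interval from 0.22 to 0.93. Dek, at -0.89 in PD800, had a PD100 ratio of 0.38 with an interval from -0.18 to 0.95. Over these 1089 genes the ratios correlated weakly, with Pearson's r = 0.17 and Spearman's rho = 0.18 across genes, which are not independent replicates.

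**Figure D3:**
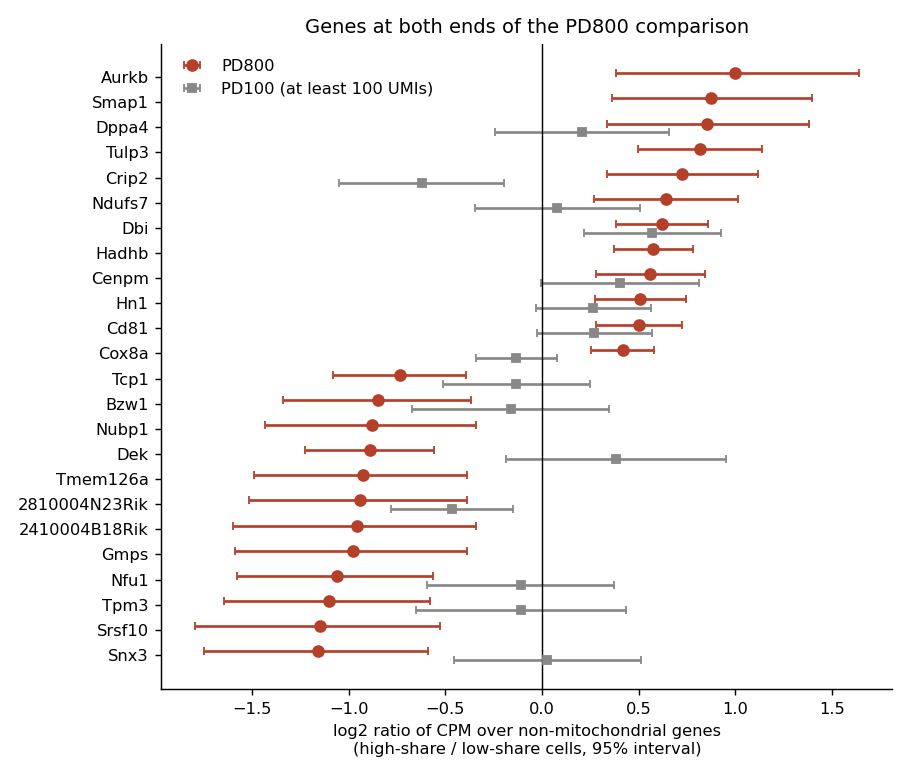
Log2 ratio of CPM over non-mitochondrial genes between high-share and low-share cells for the 12 genes at each end of the PD800 comparison (circles, 95% counting intervals), with PD100 (squares) where at least 100 UMIs were counted. PD800 intervals lie on 1 side of 0 because of how the genes were picked, and 15 of the 24 genes have a PD100 value.

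Of the gene lists, heat shock and chaperonin genes had the lowest median ratio, while by summed level S phase genes were lower still. Heat shock proteins and chaperonins fold other proteins in the cytosol and the endoplasmic reticulum. Of 17 measured members of the list, 16 had ratios below 0 and 3 were at least 1.5-fold lower, beside 904 below 0 and 59 (3.57%) at least 1.5-fold lower of all 1654 genes, with a median log2 ratio of -0.29. Their summed level was 16001 CPM in the high-share cells and 18470 CPM in the low-share cells, a log2 ratio of -0.21 with an interval from -0.25 to -0.16. Per cell they took a median of 1.58% of non-mitochondrial UMIs in the high-share cells, with quartiles of 1.30% and 1.83%. In the paired cells the median was 1.83%, with quartiles of 1.60% and 2.15%, so single cells of both groups overlapped widely. The negative sign of the median held under all 21 alternatives, between -0.53 and -0.20, the scalings included.

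Hsp90aa1, the inducible cytosolic Hsp90, had 2033 UMIs in the high-share cells and 2548 in the low-share cells, a log2 ratio of -0.30 with an interval from -0.39 to -0.22. Hspa8, the constitutive Hsp70, had 1389 and 1628 UMIs, a ratio of -0.21. Hsp90ab1 had 827 and 903 UMIs, a ratio of -0.11 whose interval from -0.24 to 0.03 held 0. The 3 genes past 1.5-fold were Hsph1 at -0.78, Tcp1 at -0.73 and Hspa5, the endoplasmic reticulum Hsp70, at -0.66. Hsp90b1, its Hsp90 partner in that compartment, was at -0.47. Hspb1, a small heat shock protein, went the other way with 656 and 552 UMIs, a ratio of 0.27 with an interval from 0.10 to 0.44. Hsph1, Hspa5, Hsp90b1 and Hspb1 were chosen for mention after their values were seen.

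Over 10 groups of 90 cells ordered by mitochondrial share, without pairing, its summed level was 19583 CPM in the lowest group, from 16342 to 18319 CPM in the next 8 and 15544 CPM in the highest. It did not fall from each group to the next. In PD100 it went from 20350 CPM in the lowest of 10 groups to 18844 CPM in the highest. In the paired PD100 cells the median was -0.04 and the summed ratio -0.01, with an interval from -0.06 to 0.04. Hsp90aa1 was lower there too, at -0.28, while Hspa8 was at 0.12. The difference between the libraries was not tested.

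Translation factors, which start and extend protein chains on the ribosome, also lay lower. Of 25 measured, 18 had ratios below 0 (904 of 1654 over all genes) and 1 was at least 1.5-fold lower, near the 3.57% of all genes, with a median log2 ratio of -0.19 that stayed negative under all 21 alternatives, between -0.24 and -0.06. The factor past 1.5-fold was Eif4e, the cap-binding protein, with 58 and 94 UMIs and a ratio of -0.68. Eif5a, which helps ribosomes past stalling sequences, had 990 UMIs in the high-share cells and 1147 in the low-share cells, a ratio of -0.19 with an interval from -0.32 to -0.07. Pabpc1, the cytosolic poly(A)-binding protein, had 372 and 505 UMIs, a ratio of -0.42. Eef1a1, the most abundant of them, did not differ beyond counting error, with 1267 and 1285 UMIs. Eif4e and Pabpc1 were chosen for mention after their values were seen.

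The ribosome itself was level between the groups. The 81 measured cytosolic ribosomal protein genes gave 78000 UMIs in the high-share cells and 78336 in the low-share cells, and their median log2 ratio of 0.02 turned to -0.03 with CPM over all UMIs and in the shallower cells, and to just under 0 with the 1 in 10 cells at each end. Rpl13 was at -0.06, Rps19 at 0.13 and Rpl36a at 0.02. Of 58 mitochondrial ribosomal protein genes 26 were above 0 and 32 below, and their median of -0.04 changed sign under 9 alternatives. Of 29 proteasome subunits 9 were above 0 and 20 below (750 and 904 of 1654 over all genes). Their median of -0.09 reached 0.01 in the shallower cells alone. Their most counted genes, Psma7, Psmb6 and Psmb3, lay between 0.02 and 0.05.

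**Figure D4:**
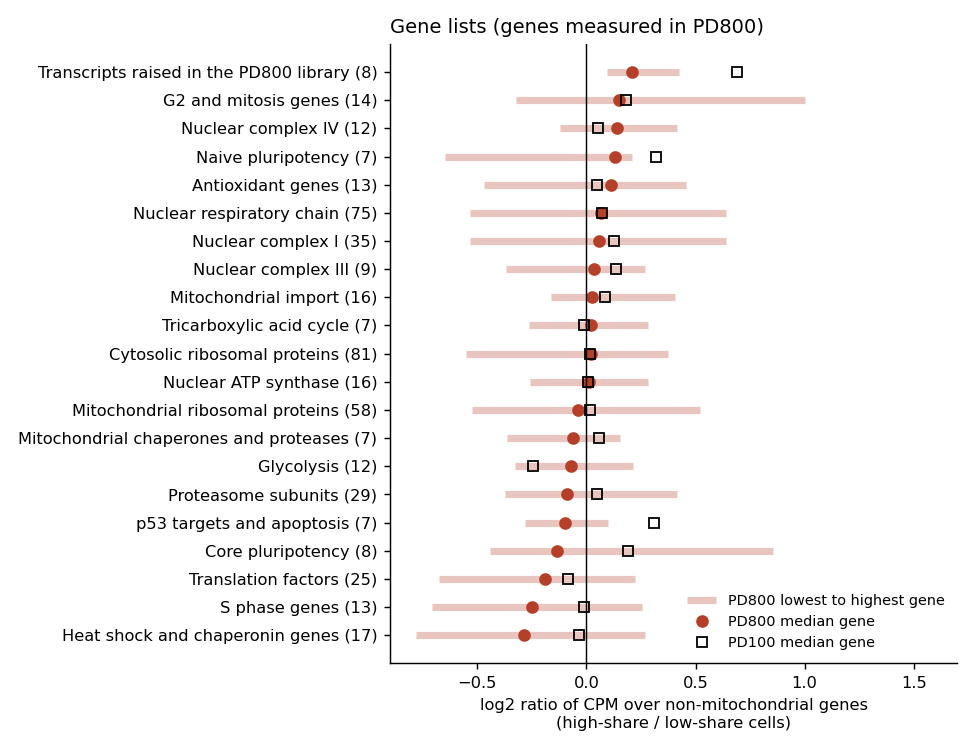
Log2 ratio of CPM over non-mitochondrial genes between high-share and low-share cells by gene list, with the number of genes measured in PD800 in brackets. Circles are the PD800 medians on bars from the lowest to the highest gene, and squares the PD100 medians. Heat shock and chaperonin genes have the lowest PD800 median at -0.29.

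The nuclear genes of the respiratory chain lay slightly higher in the high-share cells. Of 75 measured, 47 had ratios above 0 and 28 below (750 and 904 of 1654 over all genes). Of them 1, Ndufs7, was at least 1.5-fold higher (1.51% of all genes). Their median log2 ratio of 0.07 stayed positive under all 21 alternatives. It lay between 0.02 with CPM over all UMIs and 0.18 between the 1 in 10 cells at each end. These genes took a median of 4.59% of non-mitochondrial UMIs per high-share cell and 4.29% per paired cell. Their summed ratio was 0.08, with an interval from 0.06 to 0.11. This was small beside the 1.09 of the mitochondrially encoded subunits, which chose the cells.

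Among the complexes with more than 3 measured genes, complex IV, cytochrome c oxidase, the last enzyme of the chain, had the highest median. Of its 12 nuclear genes 10 were above 0 (750 of 1654 over all genes) and none was past 1.5-fold. Their median of 0.14 stayed between 0.06 and 0.30. Their summed level was 13062 CPM in the high-share cells and 11609 CPM in the low-share cells, a log2 ratio of 0.17 with an interval from 0.12 to 0.22. Cox4i1 had 1014 UMIs in the high-share cells and 867 in the low-share cells, a ratio of 0.25 with an interval from 0.12 to 0.38. Cox7b was at 0.07 and Cox7c at 0.12, with intervals that held 0. Over the 10 groups of cells the summed level went from 11228 to 13587 CPM. In PD100 the summed ratio was 0.03, with an interval from -0.05 to 0.10.

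The other complexes were closer to equality. Complex I had 22 of 35 genes above 0 (750 of 1654 over all genes). Its median of 0.06 stayed positive under all 21 alternatives, from 0.01 to 0.24. ATP synthase had 8 of 16 genes above 0, and its median of 0.01 changed sign under 4 alternatives. Its most counted gene Atp5g1, a ring subunit of the rotor, had 933 and 824 UMIs, a ratio of 0.20 with an interval from 0.06 to 0.34. Complex III had 5 of 9 genes above 0 with a median of 0.04 that changed sign under 5 alternatives. Of complex II only 3 genes could be measured, Sdhb at 0.32, Sdha at 0.46 and Sdhd at -0.48, and their median changed sign under 3 alternatives.

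**Figure D5:**
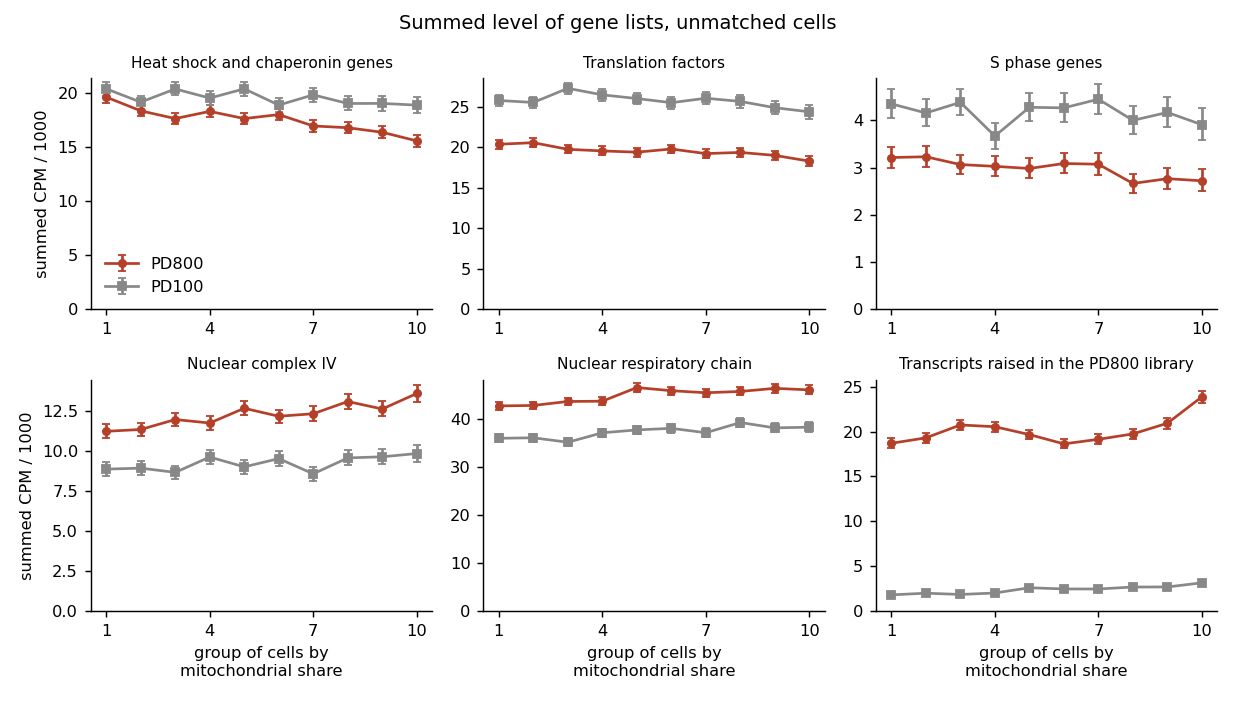
Summed level of 6 gene lists (CPM over non-mitochondrial genes divided by 1000, axes from 0, 95% counting intervals) over 10 groups of cells ordered by mitochondrial share, 1 being the lowest, in PD800 and PD100 without pairing for depth. In PD800 heat shock and chaperonin genes went from 19583 to 15544 CPM and nuclear complex IV from 11228 to 13587 CPM.

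The factors that transcribe and process mitochondrial RNA were mostly too few in UMIs to measure. Of 32 genes in this list with a column, 4 passed 100 UMIs, and their median of -0.02 changed sign under 9 alternatives. Slirp, which with Lrpprc stabilises mitochondrial mRNAs, was counted 277 times in the high-share cells and 203 times in the low-share cells, a log2 ratio of 0.47 with an interval from 0.20 to 0.74. Ssbp1, the mitochondrial single-stranded DNA-binding protein, was at -0.16, and Hsd17b10, a part of mitochondrial RNase P, at -0.02. In PD100 the Slirp ratio was -0.12, with an interval from -0.69 to 0.45. None of the regulators of mitochondrial biogenesis passed 100 UMIs, and their sum was 119 UMIs in the high-share cells and 116 in the low-share cells. Tfam, which packages mitochondrial DNA and starts its transcription, gave 21 and 22 UMIs, and Nrf1 gave 16 and 18, so a difference was not detectable at this depth.

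Protein import, folding and the citric acid cycle showed no common direction. Of 16 import genes 9 were above 0, with a median of 0.03 that changed sign under 5 alternatives. Of 7 mitochondrial chaperone and protease genes 5 were below 0, with a median of -0.06 that turned to 0.02 when cells were weighted equally. Hspd1, the Hsp60 of mitochondria, was lower, with 297 and 388 UMIs and a ratio of -0.36 with an interval from -0.59 to -0.14. Its partner Hspe1 was at -0.10 and Phb2, a prohibitin that is also in the list for fusion, fission and mitophagy, at 0.15. In that list 3 of 4 genes were above 0, Park2 and Fis1 among them, with a median of 0.11 that turned negative under 2 alternatives. Of 7 citric acid cycle genes 4 were above 0, and their median of 0.02 was negative under 17 of the 21 alternatives.

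Glycolytic genes lay slightly lower by summed level. Of 12 measured, 7 were below 0, near the share over all genes (904 of 1654). Their median of -0.07, beside -0.03 over all genes, stayed negative under all 21 alternatives. Their summed ratio was -0.10 with an interval from -0.15 to -0.06. The lowest ratio in this list was that of Eno1, enolase, with 748 UMIs in the high-share cells and 953 in the low-share cells, a ratio of -0.33 with an interval from -0.47 to -0.19. Gapdh was at -0.07 and Ldha at -0.08, with intervals that held 0. In PD100 the glycolytic median was -0.24 and Eno1 was at -0.42, with an interval from -0.56 to -0.29.

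Genes of DNA synthesis and of mitosis leaned in opposite directions. Of 13 S phase genes 11 were below 0 (904 of 1654 over all genes) and 2 were at least 1.5-fold lower (3.57% of all genes), with a median of -0.25 that turned to 0.07 between the 1 in 10 cells at each end. Their sum was 1328 UMIs in the high-share cells and 1587 in the low-share cells, a log2 ratio of -0.24 with an interval from -0.34 to -0.13. Slbp, which binds the end of histone mRNAs, was at -0.71, and Fen1, the flap endonuclease of lagging strand synthesis, at -0.60. Both were named after their values were seen. The most counted members, Mcm7, Rrm2 and Tyms, were at -0.13, -0.11 and 0.26, each with an interval that held 0. In PD100 the median was -0.01.

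Of 14 G2 and mitosis genes 10 were above 0 (750 of 1654 over all genes). Of them 1, Aurkb, was at least 1.5-fold higher (1.51% of all genes). Their median of 0.15 turned to -0.06 in the shallower cells alone. Their sum was 2742 UMIs against 2562, a ratio of 0.12 with an interval from 0.04 to 0.20. Birc5, the survivin that joins Aurkb in its complex, had 381 and 335 UMIs, a ratio of 0.21 with an interval from -0.01 to 0.42. Cks2 was at 0.24 and Hmgb2 at -0.14, with intervals that held 0. In PD100 the median was 0.18.

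Genes of stress and death did not stand apart as groups. Of 13 antioxidant genes 10 were above 0 (750 of 1654 over all genes). Their median of 0.11 turned to -0.05 when the share came from 1 random set of the UMIs and the levels from the other. Prdx1, the most abundant peroxiredoxin, had 2662 and 2699 UMIs, and Gpx4, which reduces lipid peroxides, had 610 and 526, a ratio of 0.24. Of 7 genes of the p53 response and apoptosis 3 were above 0, and their median of -0.10 changed sign under 10 alternatives. Bax was at 0.10, Ccng1 at 0.09 and Cycs, the cytochrome c that leaves mitochondria in apoptosis, at -0.23, with intervals that held 0. Of the integrated stress response, 3 genes could be measured, Asns at -0.37, Slc3a2 at -0.04 and Phgdh at 0.20, and their median of -0.04 changed sign under 2 alternatives. Of the immediate early genes Ier2 alone was measurable, at 0.05.

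Nuclear long noncoding RNAs and snoRNA host genes did not move together. Malat1, a nuclear speckle RNA, had 86 UMIs in the high-share cells and 125 in the low-share cells, a ratio of -0.52 with an interval from -0.93 to -0.11. Meg3, an imprinted long noncoding RNA, had 531 and 411 UMIs, a ratio of 0.39 with an interval from 0.20 to 0.58. The 10 nuclear long noncoding RNAs, of which these 2 could be measured, gave 714 and 608 UMIs in sum. The summed ratio was 0.25 with an interval from 0.10 to 0.41, and most of these UMIs were Meg3. Of the snoRNA host genes Zfas1 was at 0.29, Gas5 at 0.24 and Ncl at -0.21. The median of these 3 genes, 0.24, turned negative under 2 alternatives. In PD100 Malat1 was at 0.27 and Meg3 at -0.16, both with intervals that held 0.

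The high-share cells were stem cells by their markers, as were the low-share cells. The embryonic stem cell markers gave 6791 UMIs in the high-share cells and 6341 in the low-share cells, with Dppa5a, a naive pluripotency marker, at 5377 and 4805, a ratio of 0.18 with an interval from 0.13 to 0.24. Of the 8 measured markers 5 were below 0, with a median of -0.09, so Dppa5a carried the higher sum. Pou5f1, the Oct4 of pluripotent cells, had 228 and 246 UMIs. The 14 extraembryonic endoderm markers gave 86 and 78 UMIs, with 5 of them at 0 in both groups, and at least 1 such UMI was found in 52 of 190 high-share cells and 56 of 190 paired cells. The 14 fibroblast feeder markers gave 7 and 12 UMIs with 7 at 0. Trophoblast markers gave 8 and 8, neuroectoderm markers 48 and 52 and mesoderm markers 2 and 2. All 9 markers of the 2-cell state with a column were at 0, and 1 of 8 nuclear copies of mitochondrial DNA had a column, also at 0. In PD100 the endoderm markers gave 317 UMIs in the high-share cells and 589 in the low-share cells, while the 2-cell markers gave 62 and 11, of which all 62 came from 1 cell and 10 of the 11 from another. The part of these cell states in the PD100 values was not tested.

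Pluripotency genes lay on both sides of equality. Of 7 naive genes 4 were above 0 (750 of 1654 over all genes) and 1, Tcl1, was at least 1.5-fold lower (3.57% of all genes). Their median of 0.13 turned negative under 2 alternatives, equal weights for the cells and the deeper cells alone. Tcl1, a coactivator of Akt, had 39 UMIs in the high-share cells and 62 in the low-share cells, a ratio of -0.65 with an interval from -1.26 to -0.05, and was named after its values were seen. Klf4 was at 0.16, Zfp42 at 0.13 and Nanog at -0.10, with intervals that held 0. Of 8 core genes 6 were below 0 (904 of 1654 over all genes) and 1, Dppa4, was at least 1.5-fold higher (1.51% of all genes). Their median of -0.13 stayed negative under all 21 alternatives. Utf1 was at -0.23 with an interval from -0.42 to -0.03, and Dppa4 at 0.85. No gene of the formative and primed list could be measured, with 84 and 80 UMIs in sum.

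The list of transcripts raised in PD800 over PD100 had a slightly higher summed level in the high-share cells. This list was picked on these libraries, so that it is no independent evidence between them, but the mitochondrial share was not used to pick it. All 8 measured genes were above 0 (750 of 1654 over all genes), none past 1.5-fold. Their median of 0.21 stayed positive under all 21 alternatives, between 0.10 and 0.40. Per cell the list differed little at the median, with 1.92% of non-mitochondrial UMIs in the high-share cells and 1.86% in the paired cells. The lower quartiles were 1.40% and 1.26%, and the upper quartiles 2.80% and 2.28%. Dnajb14 had 4765 UMIs in the high-share cells and 4211 in the low-share cells, a ratio of 0.20 with an interval from 0.14 to 0.26. Unc13d had 2925 and 2567 UMIs and A230046K03Rik had 1609 and 1415, both at 0.21. Their summed level over the 10 groups of PD800 cells was 18691 CPM in the lowest, between 18624 and 20924 CPM in the next 8 and 23859 CPM in the highest. In PD100, at a level of 1765 to 2929 CPM in the paired cells, the summed ratio was 0.73 with an interval from 0.57 to 0.89. That sum rested on 880 UMIs in the high-share cells and 526 in the low-share cells. Only 3 of the 13 listed genes reached 100 UMIs there.

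Hmgn1, the nucleosome-binding protein that the study followed, had 1316 UMIs in the high-share cells and 1451 in the low-share cells, or 2709 against 2943 CPM. The log2 ratio was -0.12, with an interval from -0.23 to -0.01, and it turned to 0.03 after thinning to 800 UMIs. The chromatin remodeller Atrx had 44 and 50 UMIs and its partner Daxx 41 and 52. Rnaseh1, which removes RNA from DNA hybrids in nucleus and mitochondria, had 11 and 10 UMIs, so that a difference was not detectable. Terf2, a telomere-binding protein, had 23 UMIs in the high-share cells and 5 in the low-share cells, but 7 of the 23 came from 1 cell, they were spread over 10 high-share cells, and in PD100 the numbers were 6 and 15.

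Transcript length and base composition moved weakly with the ratio. For the 1610 measured genes with a GENCODE M21 transcript, the median log2 ratio was 0.01 in the shortest of 3 equal groups (up to 1633 bases), -0.07 in the middle group and -0.04 in the longest. By GC content it was -0.07 in the lowest group (up to 46.0%), -0.04 in the middle and 0.02 in the highest. Of the 25 genes at least 1.5-fold higher with a transcript, 14 were in the highest GC group and 3 in the lowest, while of the lower genes 11 and 26 were. Heat shock and chaperonin genes had a median transcript of 3222 bases and 45.9% GC, and within the longest group 10 of them had a median ratio of -0.37. Nuclear complex IV genes had a median transcript of 815 bases and 49.4% GC, and within the shortest group 10 of them had a median of 0.14. The part of length and base composition in these group values was not tested.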

How the data were processed

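Single-cell RNA-seq count tables of 2 libraries of Terc-/- mESCs were used. Values were deposited as raw UMI counts for each barcode and gene. The authors produced them by the inDrops pipeline on a GRCm38 (mm10) transcriptome, and Scanpy is named in the submitters' processing notes. The annotation release was not given in the sources used here. Reads of overlapping genes or of near-identical copies could be split by that counting. The tables have 38458 gene columns, 37 of them mitochondrial.

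Barcodes were kept by the study's own limits, at least 1000 UMIs and at most 20% mitochondrial UMIs. This kept 900 of 1666 PD800 barcodes (2580963 UMIs, 758 left out by their total and 8 by their share) and 814 of 1291 PD100 barcodes (1826233 UMIs). The study states fewer cells for both libraries after these limits, so its set of cells was not matched exactly, and the reason is not known. High-share and low-share cells were the 1 in 4 at each end of the mitochondrial percentage, ties broken by barcode. Pairs were the nearest totals within 0.1 on the log2 scale, which left 190 pairs in PD800 and 146 in PD100. UMIs were summed over cells and divided by the UMIs outside mitochondrial genes (CPM). Genes with at least 100 UMIs over both sides were compared. With 1 library per time point there was no test. Ratios carry exact conditional (Clopper-Pearson) intervals and sums exact Poisson intervals, at 95% and for counting error only. A side with 0 UMIs was given a floor of 3 counts. Doublets were called with Scrublet at an expected 5% and kept. Thinning used random seed 1.

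The members and the 30 gene lists and 8 marker lists were chosen with earlier results of these data known. Named genes were the 12 highest and 12 lowest by the interval end nearer to equality, the mitochondrial genes, the 3 most counted genes of each list, and Hmgn1, Klf4, Nanog, Daxx, Rnaseh1, Atrx, Terf2 and Gapdh. Gene positions and transcripts came from GENCODE M21, found for 1610 of 1654 genes. On simulated counts for 1654 genes of the PD800 comparison, 99.5% of genes changed 2-fold came out past 1.5-fold and 0.619% of unchanged genes did. The simulated sums had Poisson counting error only, without variation between cells. The 0.619% is therefore not the rate of false calls in the real cells. Alternatives changed the filter, choice, pairing, scaling and weighting of cells and the minimum count. Python 3.11.15, NumPy 2.4.6, SciPy 1.17.1, pandas 2.3.3, Scanpy 1.11.5 and matplotlib 3.10.9 were used.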

Additional observations from a re-analysis of the deposited data

Results flagged for a closer look

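In 4 cases, among the summed gene lists and the genes chosen by the naming rule, the high-share cells stood on opposite sides of the low-share cells in the 2 libraries, with both counting intervals clear of 0. The summed level of the core pluripotency genes had a log2 ratio of -0.12 in PD800, with an interval from -0.23 to -0.01, and of 0.13 in PD100, with an interval from 0.01 to 0.25. Hspa8, the constitutive Hsp70, was at -0.21 in PD800, with an interval from -0.31 to -0.10, and at 0.12 in PD100, with an interval from 0.02 to 0.22. Smap1 was at 0.87 in PD800 (92 and 51 UMIs) and at -0.98 in PD100 (24 and 47 UMIs, under the minimum of 100 UMIs used for the comparisons). Crip2 was at 0.72 in PD800 (148 and 91 UMIs) and at -0.62 in PD100 (78 and 119 UMIs). In PD100 the extraembryonic endoderm markers also differed between the sides, with 317 and 589 UMIs, against 86 and 78 in PD800, and their part in these values was not tested. The differences between the libraries were not tested, since each has 1 library.

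The barcodes under 1000 UMIs, which entered no comparison, held 6.83% mitochondrial UMIs when pooled in PD800 (30536 of 447405 UMIs), above the 4.63% of the filtered cells and above the 1.74% of the PD100 barcodes left out in the same way. Their median was 3.49% in PD800 and 1.09% in PD100, both below the pooled values. A further 8 PD800 barcodes with totals from 1028 to 1778 UMIs held from 20.2% to 34.5% and were left out by the filter on the share.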

How the results depend on the processing

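Each library was single and cells are not replicates, so counting intervals are the only error given and depth limits genes under about 100 UMIs. No paired analysis was possible because each time point has 1 library, and no replicate could be left out. Of the 24 genes at either end, 22 kept their direction under each alternative run. These genes were picked on the same UMIs, and some alternatives could not turn them. Leaving out the nuclear copies of mitochondrial DNA changed nothing, and the minimum count does not enter a gene's own ratio. CPM over all UMIs and median-of-ratios scaling move all genes by a common small amount. Smap1 turned to -0.35 with the 1 in 10 cells at each end, and Dppa4 to -0.023 with the share from 1 random set of UMIs and levels from the other. Of 26 list medians, 8 kept their sign (complex I, complex IV, the respiratory chain, glycolysis, heat shock and chaperonin genes, translation factors, core pluripotency and the transcripts raised in PD800). The respiratory chain median of 0.07 was 0.18 with the 1 in 10 cells at each end. The cytosolic ribosomal median of 0.02 was -0.032 with CPM over all UMIs, -0.030 in the shallower cells, just under 0 with the 1 in 10 cells at each end and 0.052 with median-of-ratios scaling.

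The 25 genes at least 1.5-fold higher became 38 with high-share cells chosen within 10 bins of depth, 16 with CPM over all UMIs, 43 with cells weighted equally, 14 after thinning to 800 UMIs, 120 and 6 with minimums of 50 and 200 UMIs, and 0 at 2-fold. The 59 lower genes became 25 with the 1 in 10 cells at each end, 18 with the share from 1 random set of UMIs, 20 after thinning, 200 and 5 with minimums of 50 and 200 UMIs, 17 in the shallower cells, 28 in the deeper cells and 4 at 2-fold. A smaller number of genes could be measured with 1 in 10 cells (618), split UMIs (910), thinning (585), the minimum of 200 UMIs (901), and the shallower (639) and deeper cells (1177), against 1654. For the other settings the cause was not tested. The lower genes were 70.2% of those past 1.5-fold, against 84.0% with CPM over all UMIs, 58.6% with median-of-ratios scaling, 61.9% with cells weighted equally and 58.8% after thinning. They were not in excess with the 1 in 10 cells at each end (48.1%), split UMIs (48.6%), the shallower cells (48.6%) or the minimum of 200 UMIs (45.5%), and were 54.9% in the deeper cells. Leaving out the barcodes shared with PD100, an alternative added after seeing the data, gave 27 higher and 53 lower genes. Leaving out the called doublets gave 26 and 55, and a ceiling of 10% gave 24 and 59.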
